A study of Mus musculus with 2 samples.

Results

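Oxidative phosphorylation subunits are the proteins that make up the respiratory chain and the ATP synthase of the mitochondrion. They were taken from the deposited gene tables by symbol: Ndufa, Ndufb, Ndufc, Ndufs and Ndufv genes (complex I), Sdha to Sdhd (complex II), Uqcr genes (complex III), Cox4 to Cox8 genes (complex IV), Atp5 genes (complex V) and the protein-coding genes of the mitochondrial genome, whose symbols begin with mt-. This gave 101 of 21849 genes, of which 88 lie in the nuclear genome and 13 in the mitochondrial genome. The symbols carry the older names, so that for example Atp5b is the beta subunit of the ATP synthase. A few symbols stand for proteins that are no fixed part of the complex they are named after, and these are pointed out where they appear.

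The study isolated costal-cartilage-derived stem cells (CDSCs) by collagenase digestion of rib cartilage from CD45.1 or ZsGreen C57BL/6J mice in the week after birth, defined them as CD45- CD51+ cells, and expanded them in serum-containing medium. Single-cell RNA sequencing was performed on 1 library of primary CDSCs, taken without culture, and 1 of cultured CDSCs, which had been passaged 2 to 3 times. The comparison asks how the cells change when they are grown in dishes. How many animals went into each library was not given in the sources used here, and neither was the genotype used for each. The labels name bone marrow as the tissue of both libraries, whereas the methods describe rib cartilage. Blood cell markers (7 genes) summed to 859 UMIs in primary and 7491 in cultured CDSCs, or 0.000626% and 0.00227% of the UMIs. Lyz2 had 336 and 3893 UMIs and Pf4 had 10 and 2628. Ptprc, which encodes CD45, had 85 and 114. As shares of the UMIs, Lyz2, Pf4 and Laptm5 were higher in cultured CDSCs. Ptprc and Cd52 were lower there, and Coro1a and Tyrobp were near level.

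Complexes I to IV pass electrons from nutrients to oxygen and pump protons across the inner mitochondrial membrane, and complex V lets the protons flow back to make ATP. Most subunits are encoded in the nucleus and imported, while the proteins at the heart of complexes I, III, IV and V are encoded by the small mitochondrial genome, which is transcribed as long precursors and cut into messengers. Cartilage has no blood vessels, and its cells are known to rely largely on glycolysis in a tissue poor in oxygen.

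After barcodes with under 500 genes, under 1000 UMIs or over 10% mitochondrial UMIs were left out, 11746 primary cells with 137148874 UMIs (median 10026.5 UMIs per cell) and 5338 cultured cells with 330129909 UMIs (median 56864.5) remained. A UMI, or unique molecular identifier, stands for 1 captured transcript. The filter removed 150 of 11896 primary and 5460 of 10798 cultured barcodes, and 5336 of the cultured ones had under 1000 UMIs. The libraries shared 32 barcode sequences. The 13 chondrocyte markers were all lower in cultured CDSCs and took 9.08% of the UMIs of primary and 0.108% of those of cultured CDSCs, while 15 genes of the G2M phase of cell division took 0.0107% and 0.0598%. Among tissues rich in mitochondria, skeletal muscle markers (12 genes) took 0.031% and 0.00286% and brown adipocyte markers (8 genes) 0.00379% and 0.016%. The muscle gene Ckm had 8 and 7 UMIs and the brown fat gene Ucp1 had 1 and 13. In primary CDSCs the muscle sum was mostly Tnnt3 (39913 of 42508 UMIs), while Acta1 was level between the libraries (log2 ratio 0.04). In cultured CDSCs the brown adipocyte sum was mostly Pparg, Fabp4 and Dio2, while Cidea was lower there (729 and 96 UMIs). Since each condition had a single library, the differences carry no replicate error and were not tested. The intervals, exact and at 95%, are for counting error alone.

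Nuclear subunits took up a larger share of the transcripts in cultured than in primary CDSCs. They summed to 1.04% of the UMIs of primary and 1.92% of those of cultured CDSCs. Levels of single genes are given as counts of UMIs scaled to a library of 1e+06 UMIs (CPM). Since the assay tags the end of each transcript, CPM is not divided by length. Of the 88 nuclear genes, 81 reached 10 CPM in at least 1 library, and the log2 ratios of cultured over primary CPM had a median of 1.00 (2.01-fold), from -2.31 to 2.98. The median over all 9115 genes with at least 10 CPM was 0.37. By any amount, 73 of the 81 (90.1%) were higher in cultured CDSCs, against 64.5% of all genes. At least 2-fold higher were 41 (50.6%), against a background of 27.2%, and 1 (Ndufa4l2) was at least 2-fold lower, against 12.5% of all genes. The other 39 lay within 2-fold. Cox6b2 and a second Atp5o identifier reached 10 CPM in cultured CDSCs alone and so had to be higher there. With TMM scaling, which lowered the median of all genes to 0.16, the median of the subunits was 0.81, and 64 of the 81 were higher. The background of all genes is not one of like length: of other genes under 600 bases and from 600 to 900 bases, 57.1% and 44.2% were at least 2-fold higher. Relative to other genes of like transcript length the median of the subunits was 0.21 and 14 of 80 were at least 2-fold higher.

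**Figure D1:**
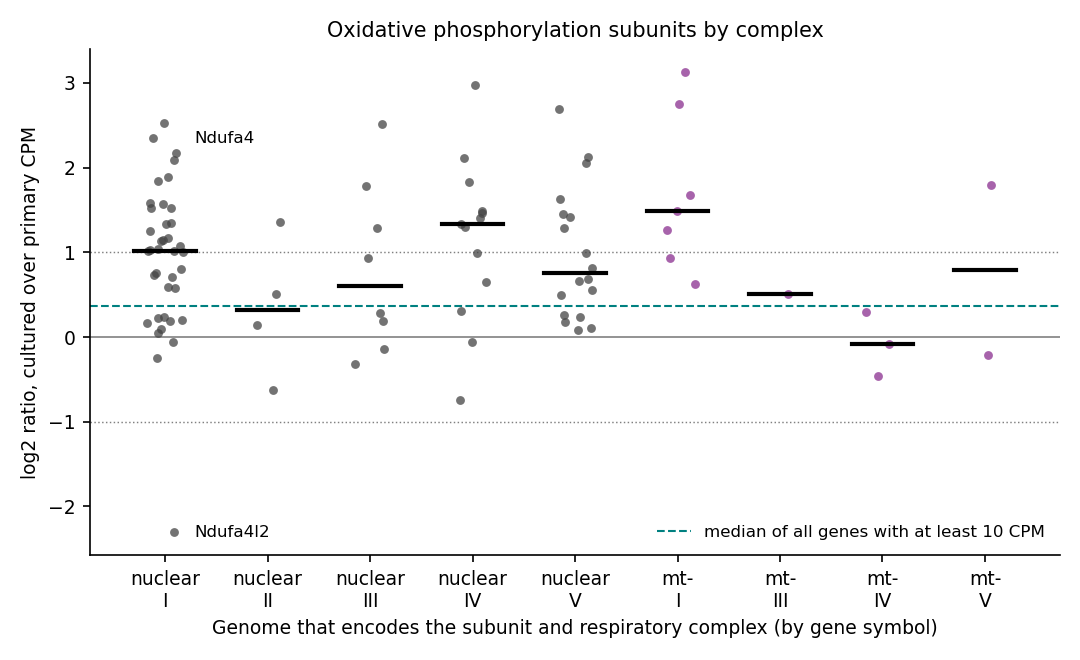
Each point is 1 subunit gene with at least 10 CPM in either library, placed by the complex of its symbol and by the genome that encodes it (nuclear, or mitochondrial as mt-), and the vertical axis is the log2 ratio of cultured over primary CPM. Thick bars are medians of a group, the dashed line is the median of all genes (0.37) and dotted lines mark 2-fold. Nuclear complex I ran from -2.31 (Ndufa4l2) to 2.53, and all 18 genes of nuclear complex V lay above 0, which for Atp5a1, Atp5b and the main Atp5o did not hold under TMM scaling and for 7 genes not relative to other genes of like transcript length.

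The difference was spread unevenly within the complexes. A list of 13 nuclear genes encodes core or catalytic subunits, which carry the redox centers or the nucleotide-binding sites. These 13 had a median log2 ratio of 0.19. The other 68 nuclear genes, mostly small accessory subunits, had a median of 1.14. At least 2-fold higher were 40 of them (58.8%) and 1 core gene (7.69%), against 27.2% of all genes. The core subunits also have the longer transcripts (median 1623 bases, against 732 for the others), and length is taken up below.

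Complex I, the NADH dehydrogenase and entry point for electrons from NADH, had 38 nuclear genes over 10 CPM. Of these, 35 (92.1%) were higher and 22 (57.9%) at least 2-fold higher in cultured CDSCs (median log2 1.02). Of all genes, 64.5% were higher and 27.2% at least 2-fold higher. With TMM scaling Ndufv1, Ndufv2, Ndufa6 and Ndufb5 turned slightly lower. Relative to other genes of like transcript length, 9 turned lower, the furthest being Ndufa6 (-1.10) and Ndufb10 (-0.63). Among its core subunits, Ndufv1, which binds NADH, was at 39.0 CPM in primary and 44.6 in cultured CDSCs, and its partner Ndufv2 at 99.8 and 103. Ndufs1, the largest iron-sulfur subunit, was at 22.0 and 32.8. These core genes lay close to equality or under 2-fold. Ndufs7 and Ndufs8, which carry iron-sulfur clusters next to the quinone site, had log2 ratios of 0.80 and 0.73. Ndufs3 was at 102 and 97.4 CPM, a log2 ratio of -0.06. Ndufa3, an accessory subunit, was at 26.1 and 150 CPM (log2 2.53, interval 2.48 to 2.58). Ndufb11 had the highest primary level of the nuclear complex I genes, and at 237 and 200 CPM it was somewhat lower in cultured CDSCs (log2 -0.24).

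A pair of paralogues named after complex I differed in opposite directions. Ndufa4, which despite its symbol is known as a subunit bound to complex IV, was at 110 CPM in primary and 560 in cultured CDSCs, a log2 ratio of 2.35 (2.32 to 2.37). Ndufa4l2, a paralogue known to be induced by the hypoxia-inducible factor and to restrain complex I, was at 226 and 45.7 CPM, a log2 ratio of -2.31 (-2.33 to -2.28). The order of both genes was thus reversed between the libraries. Cox4i2, the complex IV isoform known from lung and from cells at low oxygen, was also lower in cultured CDSCs, at 17.6 and 10.5 CPM (log2 -0.74). Its ubiquitous counterpart Cox4i1, the nuclear complex IV gene with the highest primary level, was almost level at 765 and 733 CPM (log2 -0.06).

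Complex II, the succinate dehydrogenase that also works in the tricarboxylic acid cycle and is encoded wholly in the nucleus, differed least among the nuclear groups, with a median log2 ratio of 0.32 over 4 genes. Sdha and Sdhb, its catalytic flavin and iron-sulfur subunits, were at 54.0 and 76.2 CPM in primary and 76.6 and 84.1 in cultured CDSCs. The membrane anchors went in opposite directions, with Sdhc at log2 1.36 and Sdhd at -0.63 (48.9 and 31.6 CPM).

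Complex III, the cytochrome bc1 complex, had 8 nuclear genes with a median log2 ratio of 0.61. Uqcrfs1, the Rieske iron-sulfur protein, was lower in cultured CDSCs at 97.6 and 78.3 CPM (log2 -0.32). Uqcr11, a small accessory subunit, was at 57.1 and 327 CPM (log2 2.52). Uqcrh, the hinge protein and the highest of its nuclear genes in primary CDSCs, was at 475 and 539 CPM, and Uqcrb at 128 and 244. The complex therefore held members from slightly lower to more than 5-fold higher.

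Complex IV, cytochrome c oxidase, had the highest median of the nuclear groups (log2 1.34 over 13 genes). At least 2-fold higher were 8 of the 13 (61.5%), against 27.2% of all genes. Several of its subunits come as a broadly expressed form and a form known from muscle or testis. The broadly expressed Cox6b1, Cox8a and Cox7b had log2 ratios of 2.12, 1.47 and 1.34, whereas Cox7a2 and Cox6a1 stood at 0.99 and 0.65. Cox7a2l, a paralogue of which some forms are known to help join complexes III and IV into supercomplexes, was at 0.31 (284 and 352 CPM). Which form these cells make was not examined. Cox6b2, known from testis, had the largest ratio of all nuclear members at 2.98 (2.85 to 3.11), from 3.59 to 28.3 CPM, which left it far below Cox6b1 at 462 CPM. Of the muscle forms, Cox7a1 was at 0.656 and 2.52 CPM and Cox6a2 had 6 and 59 UMIs in the whole library. Cox8b had 4 and 3 UMIs. The testis forms Cox7b2 and Cox8c had 31 and 8 UMIs and 4 and 2 UMIs. These tissue-specific forms thus stayed under 10 CPM except for Cox6b2. Cox5b-ps is a pseudogene (4.88 and 5.66 CPM), and reads of it and of Cox5b may be hard to tell apart. Ndufb11b had no UMI in either library, with exact upper limits of 0.0269 CPM in primary and 0.0112 in cultured CDSCs.

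Complex V, the ATP synthase, was higher in cultured CDSCs for all 18 of its nuclear genes, whereas 64.5% of all genes were higher. The median log2 ratio was 0.75, though Atp5a1, Atp5b and the main Atp5o turned slightly lower with TMM scaling. At least 2-fold higher were 7 (38.9%), against 27.2% of all genes. The transcripts of the 18 had a median of 823.5 bases. Of other genes under 600 bases and from 600 to 900 bases, 57.1% and 44.2% were at least 2-fold higher. Relative to other genes of like transcript length, 7 of the 18 were lower (Atp5a1, Atp5b, Atp5c1, Atp5g2, Atp5g3, Atp5h and the main Atp5o). The catalytic head was nearly level: Atp5a1 was at 246 and 260 CPM, Atp5b at 295 and 318, and Atp5c1, the central stalk, at 239 and 286. The largest ratio belonged to Atp5k, a small membrane subunit at the place where ATP synthases pair up, with 35.8 and 231 CPM (log2 2.69). Its neighbor Atp5l had a log2 ratio of 1.42. Subunit c, which forms the rotating ring, is made from 3 genes with the same mature protein. Atp5g2, the most abundant, was at 487 and 573 CPM, Atp5g1 at 223 and 393, and Atp5g3 at 123 and 195, so that all 3 were higher in cultured CDSCs and Atp5g2 stayed the highest. Atp5o has a second gene identifier in the table with fewer UMIs (5.83 and 25.5 CPM), whose reads may be shared with the main one (190 and 214 CPM).

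Promoter windows came from RefSeq (GRCm38.p6, 250 bases before to 50 after the start, 300 in all). They were matched by gene identifier or, failing that, by symbol for 69 of the 88 nuclear genes, in 74 windows. The windows of Atp5k and Uqcr11 are shown as genes with large ratios that hold 4 and 3 matches, and that of Ndufs3 as a core subunit that was level. They were picked after the matches were seen, and of the other 3 nuclear genes with the largest ratios, Cox6b2 and Ndufa4 hold 0 matches and Ndufa3 holds 1. Capitals mark matches on either strand to letters that are known to be bound by ETS factors (CCGGAAG), NRF1 (GCGCATGC), YY1 (ATGGCGGC), hypoxia-inducible factors (ACGTG) and estrogen-related receptors (AAGGTCA). In Atp5k a pair of NRF1 matches on opposite strands overlap.
Atp5k, chr5:108434350-108434649, minus strand: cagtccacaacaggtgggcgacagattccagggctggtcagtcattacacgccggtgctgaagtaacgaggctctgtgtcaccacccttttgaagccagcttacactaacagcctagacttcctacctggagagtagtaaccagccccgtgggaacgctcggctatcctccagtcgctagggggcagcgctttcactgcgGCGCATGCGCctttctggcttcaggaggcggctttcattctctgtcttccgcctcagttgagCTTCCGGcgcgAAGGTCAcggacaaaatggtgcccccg
Uqcr11, chr10:80406772-80407071, minus strand: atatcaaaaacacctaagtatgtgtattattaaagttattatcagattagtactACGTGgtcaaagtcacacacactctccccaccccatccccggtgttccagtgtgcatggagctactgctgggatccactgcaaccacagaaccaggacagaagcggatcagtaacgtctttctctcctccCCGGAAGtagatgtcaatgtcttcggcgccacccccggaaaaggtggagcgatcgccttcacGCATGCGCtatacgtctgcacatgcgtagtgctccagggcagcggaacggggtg
Ndufs3, chr2:90904672-90904971, minus strand: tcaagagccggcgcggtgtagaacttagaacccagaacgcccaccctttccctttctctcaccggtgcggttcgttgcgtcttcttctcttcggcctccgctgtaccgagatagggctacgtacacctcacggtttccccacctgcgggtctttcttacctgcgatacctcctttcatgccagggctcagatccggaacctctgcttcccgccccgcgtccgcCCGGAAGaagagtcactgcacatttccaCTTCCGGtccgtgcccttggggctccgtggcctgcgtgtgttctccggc

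ETS letters were present in 23.0% of the windows of nuclear subunits, against 8.86% of all 32851 windows in the table. For the NRF1 letters the shares were 13.5% and 2.71%, for YY1 9.46% and 2.24%, for estrogen-related receptors 10.8% and 4.72%, and for the hypoxia letters 25.7% and 19.6%. Among the subunits, windows of genes at least 2-fold higher in cultured CDSCs (35) and of the other genes over 10 CPM (36) held the NRF1 letters at 14.3% and 13.9% and the ETS letters at 25.7% and 22.2%. The letters of estrogen-related receptors stood at 17.1% (6 windows) and 5.56% (2 windows). These shares describe letters in the window and say nothing about binding. No window for Ndufa4l2, Cox4i1 or Cox4i2 was among those used here.

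The 13 mitochondrially encoded subunits differed less in sum than the nuclear ones. They made up 1.83% of the UMIs of primary and 2.12% of those of cultured CDSCs, a log2 ratio of 0.21. Gene by gene, the median log2 ratio of the 13 was 0.93, close to the 1.00 of the nuclear ones. For each UMI of a nuclear subunit there were 1.76 UMIs of mitochondrially encoded ones in primary and 1.10 in cultured CDSCs (log2 ratio -0.68). Because the filter on mitochondrial UMIs acts on these genes directly, it was varied. With no ceiling the log2 ratio of the sum was 0.25. With TMM scaling it was 0.00964, and thus close to level.

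Below this sum the messengers differed widely. All 7 subunits of complex I were higher in cultured CDSCs, and together they made up 14.6% of mitochondrial subunit UMIs in primary and 26.1% in cultured CDSCs. Complex IV went from 55.7% to 45.8% and complex V from 17.6% to 13.3%, while mt-Cytb of complex III went from 12.1% to 14.8%. The messengers most abundant in primary CDSCs lay closest to equality, though not all were level. In CPM, mt-Co1 was at 3300 and 4045, mt-Co2 at 2941 and 2780, mt-Atp6 at 3227 and 2781, and mt-Co3 at 3964 and 2869. The last 3 were thus lower in cultured CDSCs, with log2 ratios of -0.08, -0.21 and -0.47, though mt-Co2 turned higher (0.10) in cells with at least 5000 UMIs and 1% mitochondrial UMIs.

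The 6 messengers that were least abundant in primary CDSCs were the 6 that were at least 2-fold higher in cultured CDSCs. The primary level is the denominator of the ratio, so both are tied by construction. These were mt-Nd6 (6.91 and 46.4 CPM, log2 2.75), mt-Atp8 (9.10 and 31.6, log2 1.80), mt-Nd4l (19.5 and 171, log2 3.13), mt-Nd3 (71.6 and 228, log2 1.67), mt-Nd5 (135 and 322, log2 1.26) and mt-Nd2 (461 and 1297, log2 1.49). The 6 are 46.2% of the 13, and 27.2% of all genes were at least 2-fold higher. Of the 6, mt-Nd6 and mt-Atp8 reached 10 CPM in cultured CDSCs alone and so had to be higher there. Between the groups lay mt-Nd4 (935 and 1444 CPM), mt-Nd1 (1053 and 2003) and mt-Cytb (2213 and 3138), with log2 ratios of 0.63, 0.93 and 0.50.

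**Figure D2:**
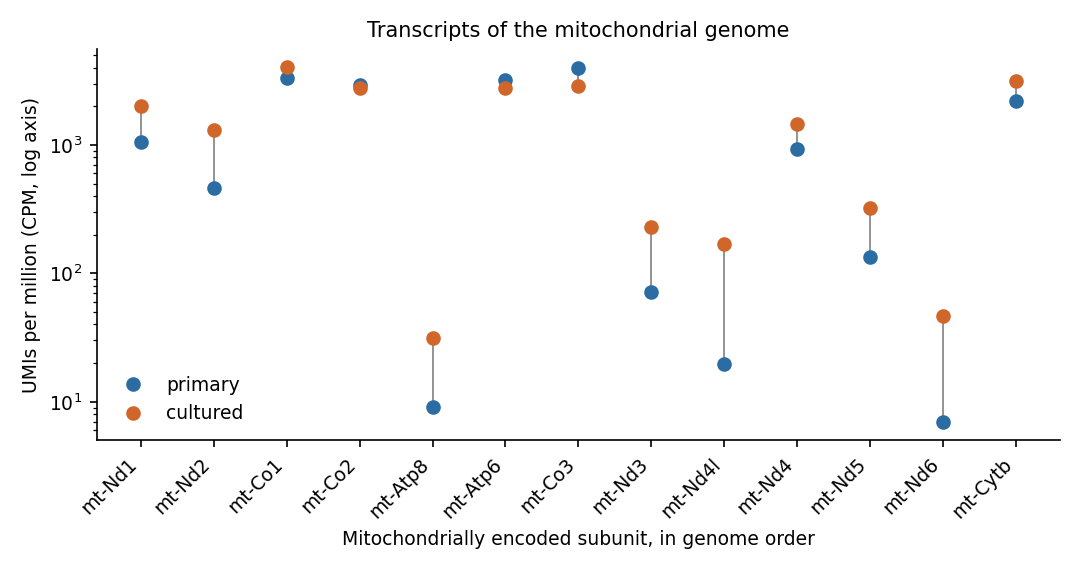
The 13 mitochondrially encoded subunits stand in their order along the mitochondrial genome, with the CPM of primary (blue) and cultured (orange) CDSCs on a log axis and a line joining both values of a gene. The distance is widest for mt-Nd4l (19.5 and 171 CPM) and mt-Nd6 (6.91 and 46.4), while mt-Co2, mt-Atp6 and mt-Co3 are lower in cultured CDSCs, mt-Co2 not so in cells with at least 5000 UMIs and 1% mitochondrial UMIs.

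Some of these genes overlap, which bears on how reads are assigned. mt-Atp8 and mt-Atp6 sit on 1 shared messenger, as do mt-Nd4l and mt-Nd4. By the GENCODE M21 annotation of GRCm38, mt-Atp8 and mt-Atp6 share 43 bases (chrM:7927-7969), which is 21.1% of the 204 bases of mt-Atp8, and mt-Nd4l shares 7 bases with mt-Nd4. mt-Nd6 is read from the opposite strand and shares 14 bases with mt-Nd5. The junctions are given with 10 bases on either side and the shared bases in capitals. Within the pairs the ratios were unlike, at log2 1.80 and -0.21 for mt-Atp8 and mt-Atp6 and at 3.13 and 0.63 for mt-Nd4l and mt-Nd4.
mt-Atp8 and mt-Atp6: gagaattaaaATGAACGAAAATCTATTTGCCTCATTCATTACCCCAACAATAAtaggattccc
mt-Nd4l and mt-Nd4: acctactacaATGCTAAaaattattct

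The share of complex I among mitochondrial messengers went with the library at each depth, whereas that of mt-Cytb did not. Complex I took 14.1% of mitochondrial subunit UMIs in the 787 primary cells under 5000 UMIs and 14.6% in the 10959 deeper ones. In cultured CDSCs it took 25.2% in the 795 cells under 5000 UMIs, 26.1% in the 4543 deeper ones and 27.3% in the barcodes left out for having under 1000 UMIs. mt-Cytb took 13.4% and 12.03% in the shallower and deeper primary cells and 11.99%, 14.8% and 11.8% in the same 3 sets of cultured barcodes, so that its order between the libraries turned in the shallower cells.

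Single cells were compared after each was thinned to 5000 UMIs, with the shallower cells left out (787 primary and 795 cultured). The median cell then held 51 nuclear subunit UMIs in primary and 92 in cultured CDSCs. The 10th and 90th percentiles were 39 and 66 in primary and 64 and 133 in cultured CDSCs. Before thinning, the medians were 1.03% and 1.83% of the UMIs of a cell. Of the cultured cells, 87.0% lay above the 90th percentile of primary cells. The shift in nuclear subunits was therefore seen across most of the cultured cells.

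For mitochondrially encoded subunits the libraries overlapped more. The median was 91 UMIs in primary and 116 in cultured CDSCs, with 10th and 90th percentiles of 51 and 136 and of 16 and 187. Unthinned medians were 1.82% and 2.35%. A separate group of cultured cells held almost no mitochondrial UMIs, since 7.29% of cultured cells had under 5 of them, against 0.401% of primary cells. The variance over the mean was 2.14 in primary and 9.24 in cultured CDSCs for nuclear subunits, and 14.4 and 39.7 for mitochondrially encoded ones. Across cells, the Spearman correlation of nuclear with mitochondrially encoded UMIs was -0.12 in primary (n = 10959) and -0.37 in cultured CDSCs (n = 4543). Both counts come out of the same fixed total of a cell, and cells of a library are not replicates.

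**Figure D3:**
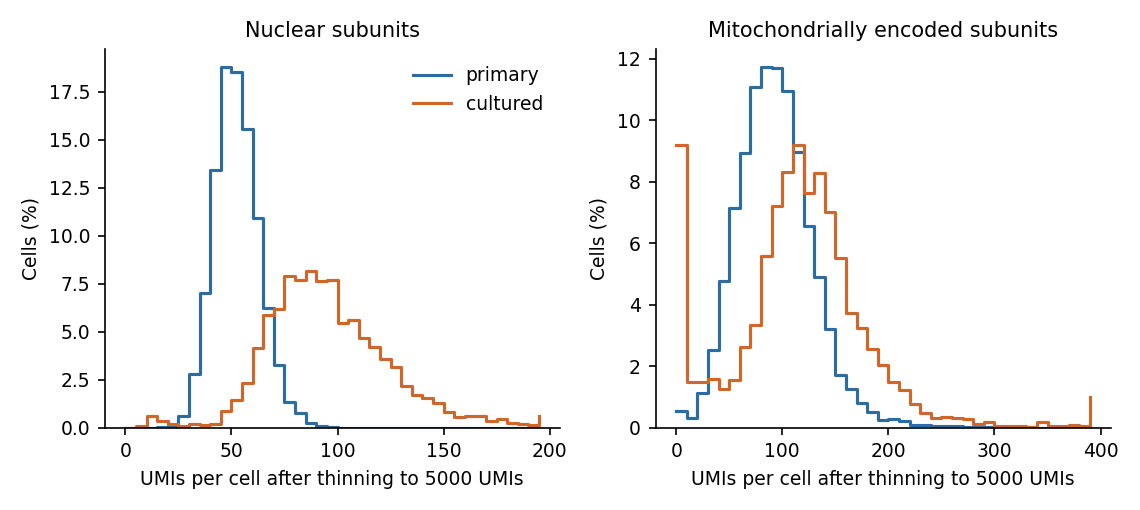
Cells of each library after thinning to 5000 UMIs, by the number of nuclear (left) and mitochondrially encoded (right) subunit UMIs they hold, with the vertical axis in percent of the cells of the library and the last class holding all higher values. The medians are 51 and 92 on the left and 91 and 116 on the right, where cultured CDSCs have a second peak near 0.

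Among cells with at least 5000 UMIs, nuclear subunits took a smaller share where mitochondrial UMIs were plentiful. In cultured CDSCs the share of nuclear subunits was 2.48% in the 412 cells with under 0.2% mitochondrial UMIs, 1.98% in the 924 cells with 1 to 2%, 1.72% in the 762 cells with 3 to 4% and 0.784% in the 77 cells with 6 to 10%. Cytosolic ribosomal protein transcripts went the same way, from 25.9% in the lowest to 7.40% in the highest class, and transcripts under 900 bases of other genes from 8.74% to 2.76%. Transcripts of at least 4000 bases went the opposite way, from 17.0% to 42.4%. In primary CDSCs the share of nuclear subunits ran from 1.22% (58 cells) to 0.782% (13 cells). The order of the libraries held in the 6 classes under 6% mitochondrial UMIs, and in the highest class the shares were 0.782% and 0.784%. The cells almost without mitochondrial UMIs were not shallow, with a median of 64581 UMIs, and what part they and the long transcripts have in the ratios was not tested beyond a count without them: with cells of at least 5000 UMIs and 1% mitochondrial UMIs, the median log2 ratio of nuclear subunits was 0.93.

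**Figure D4:**
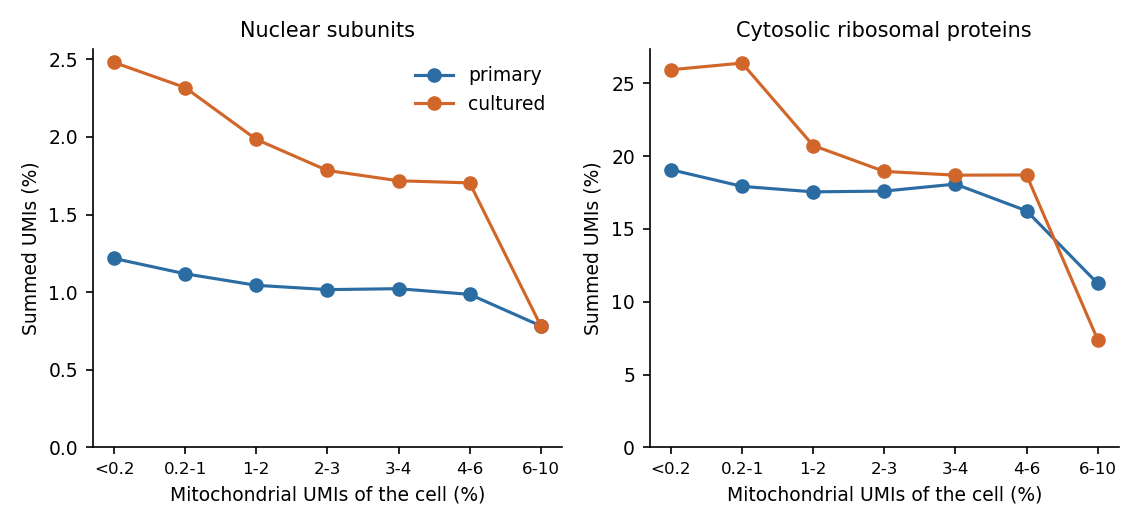
Cells with at least 5000 UMIs were put in 7 classes by their mitochondrial UMIs (horizontal axis, percent), and the vertical axes give the summed share of UMIs of nuclear subunits (left) and of cytosolic ribosomal proteins (right) in primary and cultured CDSCs. Nuclear subunits in cultured CDSCs go from 2.48% to 0.784% and stay above the primary library in every class but the highest.

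Most nuclear subunits have short transcripts, with a median of 849.5 bases, against 3139 bases for the other genes over 10 CPM. Short transcripts of other genes were also higher in cultured CDSCs. Over the other genes, the median log2 ratio was 1.19 under 600 bases (84 genes), 0.84 from 600 to 900 bases (303 genes) and 0.33 from 4000 bases. The nuclear subunits of the same classes had medians of 1.46 (19 genes), 1.00 (24 genes) and 1.17 (2 genes). From 900 to 1500 bases the medians were 0.53 for other genes and 0.59 for 19 subunits, and from 1500 to 2500 bases 0.32 and 0.39 (12 subunits). After the median of the other genes of a length class was subtracted, an alternative chosen after the data were seen, the median over 80 nuclear subunits was 0.21, with 50 of them above 0, 14 higher by 2-fold or more and 5 lower by as much. Across the 80 nuclear subunits with a length, the Spearman correlation of length with log2 ratio was -0.39, and across 8999 other genes it was -0.06. Genes are not independent replicates.

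**Figure D5:**
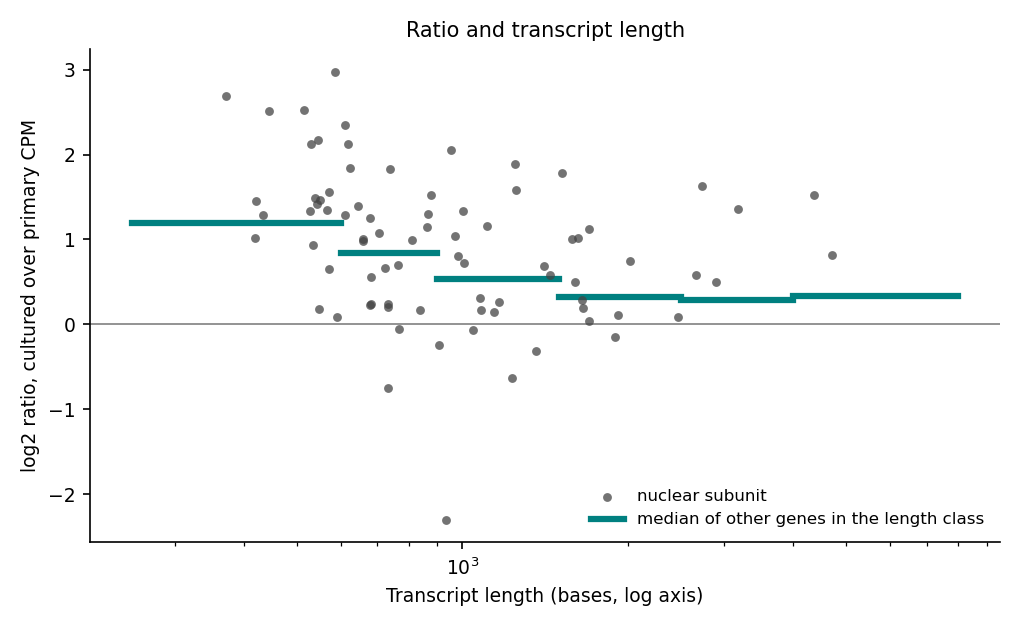
Each point is 1 nuclear subunit, by the length of its principal transcript in GENCODE M21 (horizontal log axis, bases) and its log2 ratio of cultured over primary CPM. Horizontal bars are the medians of the other genes in 6 length classes, from 1.19 for the shortest to 0.33 for the longest.

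Within the primary library, the cells were grouped into 11 clusters without the use of the subunit genes. Nuclear subunits varied little between these, from 0.904% to 1.17%, the latter in a cluster led by Aoc2, Grem1 and Acta2 (1292 cells). This cluster also had the highest Ndufa4l2 (465 CPM, against 124 to 329 in the others) and the highest Cox4i2 (48.0 CPM). At resolution 1.0 a cluster of 101 cells led by Pknox2 and Pdzrn4 stood slightly above it, at 471 and 56.9 CPM against 458 and 46.4. In the cluster led by genes of cell division (185 cells) nuclear subunits stood at 1.06%. The cluster with Tll1, Clu and Ppargc1a among its leading genes, Ppargc1a being a known coactivator of mitochondrial genes, was at 1.05%.

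The cultured library varied more, with 9 clusters from 1.59% in a cluster led by Mmp13 and Csmd1 (644 cells) to 2.37% in a cluster led by Klk8 and Slpi (1012 cells). In the former, mitochondrially encoded subunits made up 2.70%, and in the latter 1.47%. The dividing cells, led by Cenpf and Mki67 (846 cells), stood between at 2.00%. A cluster of shallow barcodes (826 cells, median 1241.5 UMIs) had 2.35% nuclear and 0.882% mitochondrially encoded subunits. Ndufa4l2 lay between 31.0 and 70.6 CPM in the cultured clusters apart from 9 cells led by Pf4 and Lyz2, below the lowest primary cluster. In all 9 cultured clusters the share of nuclear subunits exceeded that of all 11 primary clusters, while at a finer resolution 1 cultured cluster of 24 shallow barcodes lay at 1.05%, within the primary range.

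Other genes of the mitochondrion are given by lists. Of the assembly factors of complexes II to V, 16 of 26 over 10 CPM were higher by 2-fold or more in cultured CDSCs (61.5%, against 27.2% of all genes) and 0 were lower by as much (median log2 1.11). Of these 16, 7 (Pet100, Coa5, Cox10, Atpaf1, Sdhaf3, Bcs1l and Cox16) reached 10 CPM in cultured CDSCs alone and so had to be higher there. The highest were Pet100 (log2 2.88), needed for complex IV, and Uqcc2 (2.34), needed for complex III, and the lowest were Cox11 (-0.96) and Ttc19 (-0.28). Of 14 assembly factors of complex I, 4 were higher by 2-fold or more (28.6%, near the 27.2% of all genes) and 1 lower (median 0.69), with Ndufaf8 (1.66) and Ndufaf2 (1.40) at the top and Ecsit (-0.25) and Foxred1 (-1.65), which reached 10 CPM in primary CDSCs alone, at the bottom. Electron carriers and the proteins that exchange ADP and ATP had 4 of 13 higher by 2-fold (30.8%, also near that of all genes) and 1 lower (median 0.67). Their ends were the outer membrane channel Vdac1 (58.8 and 166 CPM) and the electron transfer flavoprotein subunit Etfb (log2 1.49), and Etfdh (0.10) and the glycerol-phosphate dehydrogenase Gpd2 (-1.08). Mitochondrial ribosomal proteins, a group added after values were seen, had 27 of 76 higher by 2-fold or more (35.5%) and 0 lower by as much (median 0.81). By any amount, 69 were higher and 7 lower. Cytosolic ribosomal proteins, added likewise, had 17 of 94 higher by 2-fold or more (18.1%) and 7 lower by as much (median 0.19). By any amount, 60 were higher and 34 lower. Of all genes, 27.2% were higher by 2-fold or more and 12.5% lower by as much.

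The tricarboxylic acid cycle feeds electrons to the chain. Of its 17 genes, 4 were at least 2-fold higher (23.5%, below the 27.2% of all genes) and 1 lower (median log2 0.58). Dlat (1.80) and Pdhb (-1.29), both subunits of the pyruvate dehydrogenase complex, stood at opposite ends, next to citrate synthase Cs (1.13) and Ogdh (-0.06). Of 8 genes for the upkeep and transcription of the mitochondrial genome, 1 was at least 2-fold higher, the RNA-stabilizing Slirp (2.13), and 1 lower. The lower one was the polymerase accessory subunit Polg2 (-1.44, over 10 CPM in primary CDSCs alone). Of all genes, 27.2% were at least 2-fold higher and 12.5% lower by as much. Dguok and the polymerase Polg lay at 0.76 and 0.08 (median 0.56).

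The list of nuclear regulators known to act on respiratory genes had 10 members over 10 CPM. Of these, 4 (40%) were higher and 6 lower in cultured CDSCs (median log2 -0.50), whereas 64.5% of all genes were higher. Ppargc1a was at 85.5 CPM in primary and 5.13 in cultured CDSCs, a log2 ratio of -4.06, and Myc at 140 and 24.9 (-2.49). Nfe2l2, a regulator of antioxidant genes, was at 29.6 and 148 CPM (2.32) and the nuclear receptor Esrra at 3.11 and 11.6 (1.90). Esrra passed 10 CPM in cultured and Ppargc1a in primary CDSCs alone, so their directions within the list were fixed by the filter. The level of the coactivator Ppargc1a and that of most subunits thus went in opposite directions between the libraries.

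Glycolysis, the other route to ATP, had 6 of 19 genes at least 2-fold higher (31.6%) and 3 lower (15.8%) in cultured CDSCs (median log2 0.68), near the 27.2% and 12.5% of all genes. Eno1 (1.78) and Pfkl (1.44) were at the top. The glucose transporter Slc2a1 was at 321 and 44.0 CPM (-2.87) and Aldoc, which passed 10 CPM in primary CDSCs alone, at 45.3 and 2.10 (-4.43). The log2 ratios of glycolytic genes ran from -4.43 to 1.78, or from -2.87 without Aldoc. Those of nuclear complex I ran from -2.31 to 2.53, or from -0.24 without Ndufa4l2.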

How the data were processed

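Single-cell RNA sequencing of primary and cultured CDSCs (1 library each, grouped by the treatment label) had been done with a droplet-based kit that reads the 3′ ends of transcripts. The files deposited by the authors held UMI counts for each gene and barcode, as whole numbers that had not been normalized, made with Cell Ranger 7.0.0 per the submitters' processing notes, which name mm10, GRCm38 and a later build. The annotation release and the counting of introns were not given in the sources used here.

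A barcode was kept from 500 genes and 1000 UMIs on if no more than 10% of its UMIs were mitochondrial, and no doublets were removed. Counts were summed per library and scaled to CPM. Ratios used counts raised to at least 3, with exact Poisson intervals for levels and exact conditional intervals for ratios (scipy 1.17.1, 95%). Genes that reached 10 CPM in 1 of the libraries entered medians and counts, and 2-fold was the threshold. The procedure was tested on simulated counts. Thinning drew 5000 UMIs per cell without replacement. Clusters came from the Leiden method in scanpy 1.11.5 (resolution 0.5, 20 neighbors, 10 components, 2000 variable genes) without subunit, mitochondrial and ribosomal protein genes. Doublets for the alternative were the top Scrublet scores, 0.8% per 1000 barcodes, and edgeR 4.0.16 gave TMM factors. Transcript lengths came from GENCODE M21 and promoters from RefSeq.

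Genes named are the mitochondrially encoded members, the core and paralogue lists, the 5 highest and 5 lowest nuclear members, the 2 with the highest primary CPM of each complex, and the 2 highest and 2 lowest genes of each other list. The members and lists were chosen with earlier results of these data known. With 1 library per group the precision is that of counting alone, and differences between animals, preparations or runs could not be estimated.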

Additional observations from a re-analysis of the deposited data

How the results depend on the processing

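No paired analysis was possible because each group had 1 library. The count of nuclear subunits at least 2-fold apart, 42, stayed within 1.5 times under the alternatives except that it was 19 after subtraction of the median of other genes of like transcript length. That subtraction also took the median log2 ratio from 1.00 to 0.21 and turned 22 nuclear members from higher to lower, the furthest being Ndufa6 (-1.10) and Uqcrh (-1.01). Of these Ndufa1, at -0.17, had been at least 2-fold higher. TMM scaling, which moved the median of all genes from 0.37 to 0.16, gave 0.81, with 64 of 81 members higher and 9 turned to slightly lower (Ndufb5, Uqcrh, Sdhb, Atp5b, Ndufa6, Atp5o, Ndufv2, Atp5a1 and Ndufv1). Cells with at least 5000 UMIs and 1% mitochondrial UMIs gave 0.93, with mt-Co2 then higher at 0.10 and Ndufv2 slightly lower at -0.00880. The log2 ratio of summed mitochondrially encoded UMIs (0.21) was 0.18 with a ceiling of 5%, 0.24 with 20%, 0.25 without a ceiling, 0.23 from 5000 UMIs, 0.18 without presumed doublets, 0.00964 with TMM, 0.21 over UMIs that are not mitochondrial, 0.0766 with cells weighted equally, 0.23 with every deposited barcode and 0.39 with at least 5000 UMIs and 1%. The log2 ratio of mitochondrially encoded over nuclear UMIs (-0.68) was, in the same order but without TMM and the other scaling, -0.71, -0.65, -0.63, -0.66, -0.70, -0.81, -0.65 and -0.42. The cause of these shifts was not tested. At resolution 1.0 the cultured clusters ran from 1.05% to 2.89% nuclear subunits. The alternatives with every barcode, with 1% mitochondrial UMIs and with length were chosen after seeing the data.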
